A study of Homo sapiens with 12 samples.

Results

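The genes described are the 5 non-receptor protein tyrosine phosphatases that carry a FERM domain, namely PTPN3, PTPN4, PTPN13, PTPN14 and PTPN21. They were taken by gene name from the deposited expression table, which gave 5 of its 60671 genes. No measured value entered that rule, but the family was chosen with earlier results of these data known. RNA sequencing was done on 12 libraries labelled as the human T cell leukemia line Jurkat, 3 in each of 4 groups, all harvested after 48 h. NC+DMSO libraries came from control cells with the solvent alone, NC+VCR libraries from control cells given vincristine (VCR, a drug that blocks microtubule assembly), and PTPN21+DMSO and PTPN21+VCR libraries from cells overexpressing PTPN21 with the same additions. The labels give the control genotype as WT, while the study's methods describe control cells with a GFP vector and PTPN21 cells with a lentiviral, FLAG-tagged PTPN21, both under the viral SFFV promoter. How much VCR was given before sequencing is not stated in the sources used here, and nothing says that the 3 libraries of a group came from separate cultures, so p-values measure only the spread between these libraries.

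Protein tyrosine phosphatases remove phosphate from tyrosine residues and so oppose tyrosine kinases. A FERM domain binds membrane lipids and the cytoplasmic tails of membrane proteins, and holds its protein near the cell cortex. PTPN3 and PTPN4 are close relatives with a PDZ domain and can act on the CD3 zeta chain of the T cell receptor, PTPN13 has several PDZ domains and binds the death receptor FAS, and PTPN14 and PTPN21 form a further pair known for binding the Hippo pathway effector YAP1 (PTPN14) and the kinases SRC and TEC and the motor KIF1C (PTPN21).

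The coding sequence around the catalytic cysteine is shown for each member, because all members share this motif and reads of 1 member could be taken for another there. Each line holds 60 bases of coding sequence from GENCODE 29 (GRCh38), 5′ to 3′, with the codon of the catalytic cysteine in capitals.
PTPN3: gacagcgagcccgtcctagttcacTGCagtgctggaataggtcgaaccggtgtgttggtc
PTPN4: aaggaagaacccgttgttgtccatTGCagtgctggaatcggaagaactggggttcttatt
PTPN13: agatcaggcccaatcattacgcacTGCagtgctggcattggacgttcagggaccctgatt
PTPN14: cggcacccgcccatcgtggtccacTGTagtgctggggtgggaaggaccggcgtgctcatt
PTPN21: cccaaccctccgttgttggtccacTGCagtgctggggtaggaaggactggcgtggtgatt
The PTPN14 and PTPN21 lines were identical at 47 of 60 bases (78.3%), the most of any pair, and the PTPN13 and PTPN21 lines at 31 of 60 (51.7%), the fewest. PTPN14 alone has the codon TGT for the cysteine, where the others have TGC. The PTPN21 line lies in exon 18 of 19 of transcript ENST00000556564.5, at chr14:88468955-88469014 on the minus strand, and the PTPN14 line also in exon 18 of 19, at chr1:214364551-214364610 on the minus strand. The PTPN13 line lies in exon 46 of 48, at chr4:86809883-86809942 on the plus strand. The PTPN4 line runs across the junction of exons 25 and 26 of 27, between chr2:119965617 and 119967867 on the plus strand, and the PTPN3 line across the junction of exons 24 and 25 of 26, between chr9:109381757 and 109382330 on the minus strand. No run of 50 bases was shared between any pair of members over all their annotated transcripts, and none of the 3473 such runs in the PTPN21 coding sequence occurred in a transcript of another gene. Over all annotated transcripts, 233 runs of PTPN14 (1.24%), 15 of PTPN4 and 10 of PTPN3 also occurred in transcripts of other genes, and 0 of PTPN13 and PTPN21. None of these lay in the coding sequences of the transcripts used here. Whether the counting used strand is not given in the sources used here, and 159 runs of 50 bases of PTPN21 transcripts and 1268 of PTPN14 transcripts overlap genes on the opposite strand.

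Values are FPKM, fragments scaled to gene length and to the library's total, so that levels of different genes can be set side by side. The table gives no depth. From the steps in which FPKM times length falls in genes of 1 exon, libraries were estimated to hold between 14.4 M and 24 M fragments, but between 14.5% and 28.2% of the low values lay near a step, so the estimate is rough and may be off by a whole factor. Only steps from 0.035 to 0.08 (FPKM times length in kilobases) were searched, which limited the estimate in advance. Fragment counts below also use the length of 1 transcript per gene. By this estimate, every PTPN21 library (20.5 M to 24 M) was deeper than every NC library (14.4 M to 18.1 M), so depth and construct vary together. The labelled cell type was checked against 10 T cell genes, of which CD3D alone had an FPKM of at least 1 in all 12 libraries, while LCK, CD5, CD28 and CD247 (the CD3 zeta chain) were listed at 0 in all 12. The summed FPKM of the T cell list was 62.2 to 96.4 in the NC+DMSO libraries and 117 to 142 in the PTPN21+DMSO libraries. It was 109 to 133 in NC+VCR and 108 to 113 in PTPN21+VCR. None of 8 B cell precursor genes and 1 of 5 myeloid genes (LYZ) had an FPKM of at least 1 in all 12. Of 7 epithelial and kidney genes, KRT8, KRT18 and EPCAM did, and the summed FPKM of this list was 388 to 589 in the NC+DMSO libraries and 510 to 579 in the PTPN21+DMSO libraries, against 1154 to 1360 (NC+VCR) and 1203 to 1676 (PTPN21+VCR). The 8 erythroid genes chosen after the values were seen (HBG1, HBG2, HBE1, HBA1, HBA2, GATA1, KLF1 and HEMGN) all had an FPKM of at least 1 in all 12 libraries. Their summed FPKM was 1512 to 2218 in the NC+DMSO libraries and 3138 to 4311 in the PTPN21+DMSO libraries, against 963 to 1005 (NC+VCR) and 1191 to 1357 (PTPN21+VCR). PAX2 and CDH2 of the epithelial and kidney list were listed at 0 in all 12 libraries. CD3D goes with the label, while the T cell genes at 0 and the values of KRT8, KRT18 and EPCAM go against it, so the samples are called by their group names. The erythroid genes were picked from these same values, so their passing follows from the choice and is only a description. The part of all these genes in the results was not tested.

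The family was carried almost wholly by 2 of its members. PTPN3 (ENSG00000070159, chr9:109375466-109498313) and PTPN13 (ENSG00000163629, chr4:86594315-86815171) were listed at 0 in all 12 libraries, which on this table says only that no value above 0 is given. None of 10 genes that every cell uses was listed at 0 in any library. PTPN14 (ENSG00000152104, chr1:214348696-214552449), the partner of YAP1, was listed at 0 in 6 of 12 libraries. Its FPKM was 0, 0.00519 and 0.00524 in the NC+DMSO libraries, 0.0131, 0.0117 and 0.0104 in PTPN21+DMSO, 0 in every NC+VCR library, and 0.0159, 0 and 0 in PTPN21+VCR. By the rough depths, the highest of these values stands for 4.2 fragments and the value of 2 NC+DMSO libraries for 1 fragment each. The PTPN21+DMSO libraries lay above the NC+DMSO libraries without overlap, while the PTPN21+VCR libraries reached down to 0. Of the 11591 genes tested, 33.4% did not overlap in the DMSO comparison, and PTPN14, with an average FPKM under 1, was not among those tested. Over both treatments, PTPN14 was 0.01 higher in PTPN21 than in NC libraries on the log2(FPKM + 1) scale (p = 0.05, exact two-sided permutation test within treatment, 400 arrangements, smallest possible p 0.005), which did not pass the threshold of 0.05. By the rough depths, the difference rests on a few fragments, and the part of depth in it was not tested.

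PTPN4 (ENSG00000088179, chr2:119759631-119983818), which can act on the T cell receptor, was the member with an FPKM above 1 in every library. Its FPKM was 2.16, 2.49 and 3.23 in the NC+DMSO libraries (mean 2.63 ± 0.550 SD, n = 3). In PTPN21+DMSO it was 1.42, 2.44 and 1.27 (mean 1.71 ± 0.637 SD, n = 3). In NC+VCR it was 1.09, 1.57 and 1.86 (mean 1.51 ± 0.391 SD, n = 3). The NC+VCR libraries all lay below the NC+DMSO libraries, while the PTPN21+DMSO libraries overlapped both. In PTPN21+VCR it was 4.19, 1.43 and 2.35 (mean 2.66 ± 1.40 SD, n = 3), with replicate 1 the highest of the 12 libraries and replicate 2 inside the range of NC+VCR.

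**Figure D1:**
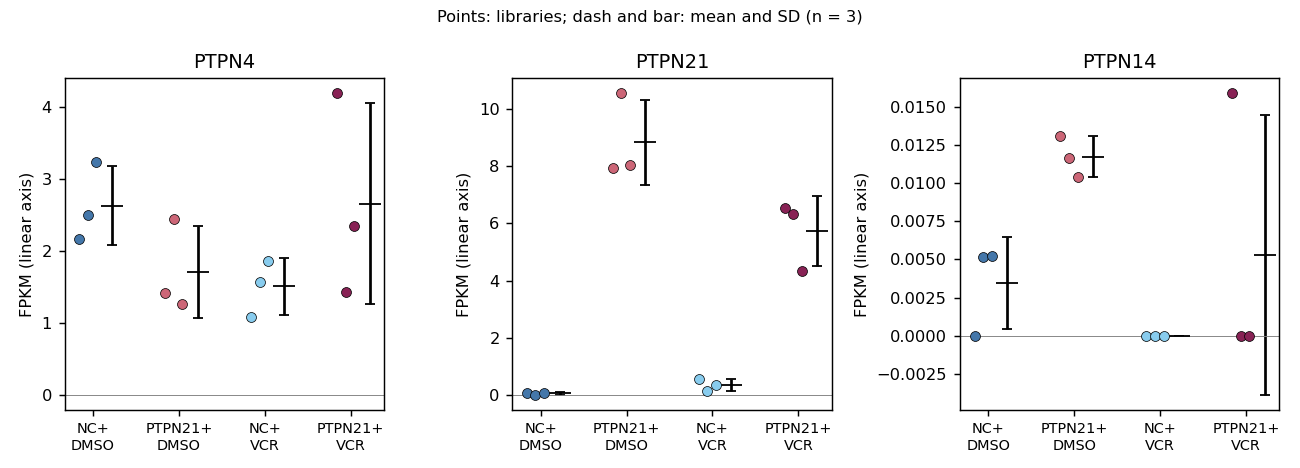
FPKM (linear axes) of PTPN4, PTPN21 and PTPN14 in each library, by group, with a dash for the mean and a bar for the SD of 3 libraries. PTPN21 lies between 4.34 and 10.5 in the PTPN21 groups and below 0.57 in the NC groups, PTPN4 lies between 1.09 and 4.19 in all groups, and PTPN14 does not exceed 0.0159.

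PTPN4 passed no test. In control cells, VCR against DMSO gave a difference of -0.54 ± 0.29 (SE) on the log2(FPKM + 1) scale (adjusted p = 0.167, limma), where the median over all 11591 genes tested was -0.36 and the groups of 44.1% of genes did not overlap. In PTPN21 cells the same comparison gave 0.39 ± 0.29 (adjusted p = 0.344, limma), with a 95% interval from -0.24 to 1.02, and the median over all genes was -0.17. PTPN21+DMSO against NC+DMSO gave -0.44 ± 0.29 (adjusted p = 0.371, limma), with an interval from -1.07 to 0.19. PTPN21+VCR against NC+VCR gave 0.49 ± 0.29 (adjusted p = 0.425, limma), with an interval from -0.14 to 1.12, and 0.20 without PTPN21+VCR replicate 1. The interaction of construct and VCR, which asks whether VCR moved PTPN4 differently in the PTPN21 and NC cells, was 0.92 ± 0.41 (unadjusted p = 0.0432, adjusted p = 0.343, limma) and 0.64 without that library, against a median of 0.17 over all genes. In bulk RNA, fewer cells that express a gene and less of its RNA per cell cannot be told apart.

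PTPN21 (ENSG00000070778, chr14:88465778-88554733, minus strand), the overexpressed gene, followed the labels in every library. Its FPKM was 7.93, 10.5 and 8.02 in PTPN21+DMSO and 6.53, 6.34 and 4.34 in PTPN21+VCR. In the control cells it was 0.0767, 0.0212 and 0.0934 in NC+DMSO and 0.569, 0.160 and 0.372 in NC+VCR. The PTPN21 and NC libraries did not overlap under either treatment (33.4% of all genes with DMSO and 22.5% with VCR), and neither did the VCR and DMSO libraries of the NC cells (44.1%) or the PTPN21 cells (50.4%). VCR libraries were higher than DMSO libraries in the NC cells and lower in the PTPN21 cells. The ratio of group means of PTPN21 to NC was 138 with DMSO and 15.6 with VCR. PTPN21 passed the filter (an average FPKM of 1 or more) only through the groups with the construct, so its calls between the constructs were bound to follow and serve only as a check of the labels. Limma gave differences of 3.20 ± 0.22 (adjusted p = 4.75e-05, against 6.34% of all genes called and 2.65% called higher) and 2.29 ± 0.22 (adjusted p = 0.000509, against 1.82% called and 1% called higher). The exact permutation test over both treatments, which used no filter, gave the smallest p it can (0.005).

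In the NC cells, which carry no PTPN21 construct by the study's description, the level was low under both treatments. The ratio of the NC+VCR to the NC+DMSO mean was 5.76, and the rough depths put the NC+DMSO libraries at 1.9 to 8.3 fragments and the NC+VCR libraries at 16.7 to 63.4. On the log2(FPKM + 1) scale, which flattens such low values, the difference was 0.35 ± 0.22 (adjusted p = 0.223, limma, against 36.2% of all genes called). With a pseudocount of 0.1 in place of 1 it was 1.44 ± 0.42 (adjusted p = 0.0210, limma). Both NC groups lie below the filter, so on the NC libraries alone PTPN21 would not have been tested, and neither value is a call on this gene. In the PTPN21 cells the ratio of the VCR to the DMSO mean was 0.650, and the difference was -0.55 ± 0.22 (unadjusted p = 0.0258, adjusted p = 0.0770, limma, against 28.5% of all genes called). Without the trend in the variance the adjusted p was 0.0462. The deposited table does not separate RNA of the construct from RNA of the cells' own gene. The interaction, which sets these NC values below the filter against the construct's, was -0.90 ± 0.31 (unadjusted p = 0.0122, adjusted p = 0.240, limma, against 0.129% of all genes called).

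**Figure D2:**
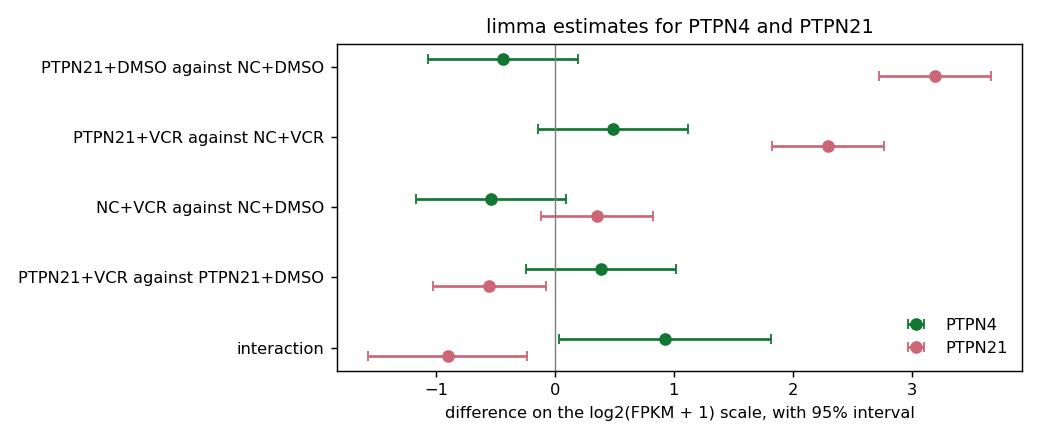
Estimates for PTPN4 and PTPN21 in the 5 comparisons (x axis, difference on the log2(FPKM + 1) scale, with 95% intervals from limma). The 2 PTPN21 against NC estimates of PTPN21 (3.20 and 2.29) stand well above 0, and the interaction estimates of PTPN4 (0.92) and PTPN21 (-0.90) have opposite signs.

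Taken as shares of the summed FPKM of the 5 genes, PTPN4 made up 97.5% ± 1.26 of NC+DMSO and 79.9% ± 12.9 of NC+VCR (SD, n = 3), but 15.9% ± 2.65 of PTPN21+DMSO and 30.9% ± 10.9 of PTPN21+VCR. Nearly all of the rest was PTPN21, with 84.0% ± 2.63 of PTPN21+DMSO and 69.1% ± 10.996 of PTPN21+VCR. The sum itself was 2.70 ± 0.569 in NC+DMSO and 1.87 ± 0.314 in NC+VCR, and 10.5 ± 2.11 in PTPN21+DMSO and 8.40 ± 2.09 in PTPN21+VCR. PTPN4 held the larger share in every NC library and PTPN21 in every PTPN21 library, and the spread was wider with VCR. The ratio of PTPN21 to PTPN4 was 5.59, 4.32 and 6.32 in PTPN21+DMSO and 1.56, 4.42 and 1.84 in PTPN21+VCR, so replicate 2 of the latter lay inside the range of the former. In NC+DMSO it was 0.0355, 0.00851 and 0.0289, and in NC+VCR 0.524, 0.102 and 0.200, with no overlap. Among the FPKM of all genes tested, 44.1% did not overlap in that comparison.

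**Figure D3:**
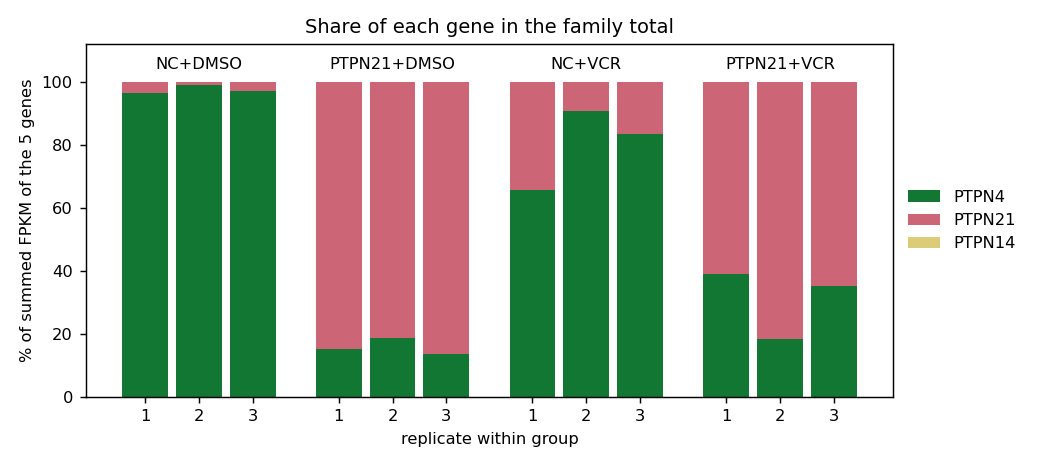
Share of PTPN4, PTPN21 and PTPN14 in the summed FPKM of the 5 genes (y axis, %), for each library. PTPN4 fills at least 65.6% of every NC bar and at most 39.0% of every PTPN21 bar, and PTPN14 is too small to be seen.

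Among all 17 PTPN genes of the table, PTPN2, which acts on JAK and STAT proteins, had the highest mean in every group (63.6 to 83.3). PTPN21 stood 12th in both NC groups, below PTPN22 in NC+DMSO and below PTPN23 in NC+VCR without overlap. With the construct it stood 5th in PTPN21+DMSO, overlapping its neighbours PTPN12 above and PTPN1 below, and 6th in PTPN21+VCR, below PTPN1 without overlap and overlapping PTPN7. The PTPN21 transcript used here has 6166 bases, of which 3522 are coding. The gene length behind its FPKM and the part carried by the construct are not given. Ranks and shares of PTPN21 with the construct are therefore rough. PTPN4 stood 8th in NC+DMSO, NC+VCR and PTPN21+VCR and 11th in PTPN21+DMSO. Its neighbour PTPN23 or PTPN9 overlapped it in each of the first 2 groups, and 20.2% of the genes tested had a lower mean than PTPN4 in NC+DMSO.

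**Figure D4:**
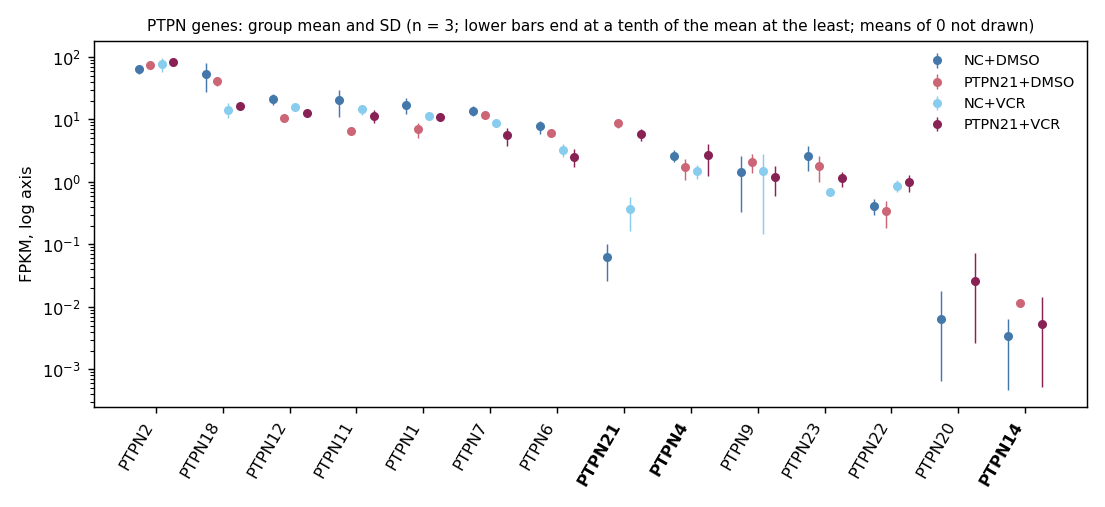
Group means with SD (n = 3, log axis, FPKM) of the 14 PTPN genes with a value above 0, members in bold, with lower bars cut where they would reach 0 and means of 0 not drawn. PTPN21 moves from 0.0638 and 0.367 in the NC groups to 8.82 and 5.74 in the PTPN21 groups, while PTPN4 stays between 1.51 and 2.66.

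The patterns of PTPN4 and PTPN21 over the 12 libraries were unlike each other (Pearson's r = -0.04 on log2(FPKM + 1)). The tested genes most like PTPN4 were CDH18, a cadherin (r = 0.89), ALG6, an enzyme of N-glycan assembly (r = 0.85), and KCTD10, an adaptor of a ubiquitin ligase (r = 0.85). Within the 6 NC libraries and within the 6 PTPN21 libraries, the r of CDH18 was 0.92 and 0.92, of ALG6 0.88 and 0.94, and of KCTD10 0.83 and 0.86. All 3 have low means like PTPN4 itself (group means of 0.648 to 2.58 FPKM). Most like PTPN21 were FTLP3, a ferritin light chain pseudogene whose reads may be split with its parent gene (r = 0.96), POLR2K, a subunit of RNA polymerases (r = 0.95), and ATP5MD, a small subunit of ATP synthase (r = 0.93). For PTPN21 the libraries fall into separate sets by construct, and within the NC and PTPN21 sets the r of FTLP3 was 0.45 and 0.97, of POLR2K 0.64 and 0.54, and of ATP5MD 0.59 and -0.09. The genes were picked by their r over these same 12 libraries, so the values within a construct are no independent check. All these r are descriptions over libraries that share construct, treatment and depth.

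Genes beside the members on the chromosome were read as a local background. Of the genes next to PTPN21, SPATA7 and ZC3H14 were tested and neither passed the threshold in any comparison, with PTPN21+DMSO against NC+DMSO at -0.59 ± 0.28 (adjusted p = 0.210, limma) and 0.15 ± 0.22 (adjusted p = 0.720, limma). KCNK10 and EML5 did not exceed 0.293. Beside PTPN4, TMEM177, EPB41L5 (itself a FERM-domain gene) and TMEM185B were tested and none passed in any comparison, while CFAP221 reached 0.186. Beside PTPN14, SMYD2 (78.0 to 118) and CENPF (45.2 to 90.9) were high, PROX1 reached 0.751 and KCNK2 was listed at 0. Beside PTPN3 and PTPN13, the highest value of the 8 neighbours was 0.484.

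The promoters of the 2 members with a mean FPKM of at least 1 are shown, 250 bases before to 50 after the start (RefSeq, GRCh38.p14), since the construct carries the SFFV promoter in place of the cells' own. PTPN21 reached that mean only through the groups with the construct, so the mean does not measure the promoter shown. Its means were 0.0638 FPKM in NC+DMSO and 0.367 in NC+VCR. Capitals mark CATTCC, which with its reverse complement GGAATG is the core of the motif bound by TEAD factors, the DNA-binding partners of YAP1. The motif was chosen after the promoters had been read.
PTPN4: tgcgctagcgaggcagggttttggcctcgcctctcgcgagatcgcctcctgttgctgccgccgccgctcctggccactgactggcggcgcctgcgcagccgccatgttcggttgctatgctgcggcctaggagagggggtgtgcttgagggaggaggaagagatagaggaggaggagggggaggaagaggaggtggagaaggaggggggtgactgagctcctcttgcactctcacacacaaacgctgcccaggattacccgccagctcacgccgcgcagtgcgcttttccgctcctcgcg
PTPN21: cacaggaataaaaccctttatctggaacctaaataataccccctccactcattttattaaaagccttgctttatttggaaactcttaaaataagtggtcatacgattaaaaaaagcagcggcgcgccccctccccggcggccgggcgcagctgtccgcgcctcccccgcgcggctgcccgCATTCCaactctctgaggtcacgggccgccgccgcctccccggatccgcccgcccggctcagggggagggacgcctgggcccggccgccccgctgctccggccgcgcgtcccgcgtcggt
The PTPN4 promoter lies at chr2:119759672-119759971 on the plus strand, has 65.7% G and C and 24 CpG, and holds neither form of the motif. The PTPN21 promoter lies at chr14:88554958-88555257 on the minus strand, has 63.7% G and C and 33 CpG, and holds CATTCC 70 bases before the start. All 5 members matched a RefSeq entry, PTPN3 with 4 promoters and the others with 1 each. The motif also occurred 70 bases before the start of PTPN13, 200 before that of PTPN14 and in 1 of the 4 PTPN3 promoters, against 4928 of all 35116 promoters (14.03%). A match is a run of letters and not a site, and YAP1 and WWTR1, the coactivators that work with TEAD factors, were listed at 0 in all 12 libraries while the group means of TEAD1, TEAD2, TEAD3 and TEAD4 were between 0.826 and 4.53 FPKM.

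The remaining PTPN genes were the nearest set for comparison. Of 12, 9 were tested, and in PTPN21+DMSO against NC+DMSO 3 fell and none rose (all genes: 3.69% lower, 2.65% higher), with a median of -0.27 over the 9 against -0.14 over all genes. PTPN11 (SHP2, a positive regulator of RAS signalling) had an FPKM of 20.4 ± 9.41 in NC+DMSO and 6.62 ± 0.882 in PTPN21+DMSO (difference -1.40 ± 0.29, adjusted p = 0.0236, limma). PTPN1 (PTP1B, which acts on the insulin receptor) differed by -1.17 ± 0.22 (adjusted p = 0.0162, limma). PTPN12 (PTP-PEST, which acts on focal adhesion proteins) differed by -0.92 ± 0.16 (adjusted p = 0.0118, limma). All 3 also passed with median ratio scaling, under which 573 of all 11591 genes were called. In PTPN21+VCR against NC+VCR none of the 9 passed by limma (all genes: 1% higher, 0.82% lower). An unadjusted p under 0.05 was found for 1 of the 9 (limma). The share of all genes at that cut was not computed, here or for the lists below, so such counts have no background.

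Of 34 other genes with a FERM domain, 22 were tested, and in PTPN21+DMSO against NC+DMSO 6 fell, none rose and 16 did not pass (all genes: 3.69% lower, 2.65% higher). The median was -0.41 over the 22 and -0.14 over all genes. Moesin (MSN), which links the membrane to actin, was 365 ± 76.7 in NC+DMSO and 177 ± 38.9 in PTPN21+DMSO (-1.04 ± 0.19, adjusted p = 0.0127, limma), and its relative ezrin (EZR) was 108 ± 4.27 and 81.4 ± 4.37 (-0.40 ± 0.10, adjusted p = 0.0371, limma). EPB41, the red cell membrane skeleton protein 4.1, was 18.7 ± 11.8 and 4.60 ± 1.19 (-1.64 ± 0.38, adjusted p = 0.0305, limma), and its relatives EPB41L2 and EPB41L3 differed by -0.88 ± 0.22 and -0.93 ± 0.21 (adjusted p = 0.0406 and 0.0305, limma). FERMT2 (kindlin-2), which activates integrins, differed by -0.94 ± 0.25 (adjusted p = 0.0443, limma). With median ratio scaling, which moved the median of all genes from -0.14 to 0.01, 2 of the 22 passed, both lower. The direction of the calls over all genes went with the scaling in this comparison. Of the calls, 41.8% were higher on FPKM as deposited, 20.5% with TPM scaling and 73.6% with median ratio scaling. With VCR, 0 of the 22 passed between the constructs by limma (all genes: 1.82% called). An unadjusted p under 0.05 was found for 5 (limma), a cut at which the share of all genes was not computed.

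Among partners of the members, the same comparison called 3 genes, all lower in PTPN21+DMSO (all genes: 6.34% called, 3.69% lower). ACTN1, an actin crosslinker, differed by -0.75 ± 0.17 (adjusted p = 0.0320, limma) and was the only 1 of 7 tested PTPN21 partners to pass. EPS15, an endocytic adaptor, differed by -1.01 ± 0.21 (adjusted p = 0.0248, limma) and ADAM17, a protease that sheds membrane proteins, by -0.79 ± 0.20 (adjusted p = 0.0378, limma), 2 of 6 tested PTPN3 and PTPN4 partners. None of 5 tested PTPN13 partners passed by limma (2 at an unadjusted p under 0.05), and FAS, the receptor PTPN13 binds, reached an FPKM of 0.0542. Of 24 Hippo pathway genes, 15 were tested and none passed between the constructs under either treatment, with 1 gene at an unadjusted p under 0.05 with DMSO and 2 with VCR (limma), and medians of -0.20 and 0.07. With VCR, 1 of the 7 PTPN21 partners and 0 of the 6 PTPN3 and PTPN4 partners and of the 5 PTPN13 partners had an unadjusted p under 0.05, and none passed after adjustment (all genes: 1.82% called after adjustment). The share of all genes at the unadjusted cut was not computed for either treatment. YAP1, WWTR1, AMOT, AMOTL2 and CCN2 were listed at 0 in all 12 libraries, and so was EGFR. The 12 list genes called between the constructs with DMSO depended on single libraries. Without PTPN21+DMSO replicate 1 none passed (adjusted p from 0.0588 to 0.181, limma), and the count over all genes fell from 735 to 67. Without NC+DMSO replicate 1 or PTPN21+DMSO replicate 3, 3 of the 12 passed (MSN, PTPN12 and PTPN1), and without NC+DMSO replicate 3, 2 passed (MSN and PTPN12). With only the compared groups in the model none passed either (adjusted p from 0.0715 to 0.113, limma). The direction held for all 12 under every alternative tried.

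VCR against DMSO was run in each construct, and the NC and PTPN21 values are given side by side. The count over all genes leaned to lower values in NC cells (28.3% lower, 7.91% higher) and in PTPN21 cells (19.3% lower, 9.22% higher), and that lean went with the scaling: of the calls, 21.9% and 32.3% were higher on FPKM as deposited and 55.8% and 52.2% after median ratio scaling. Of the 9 other PTPN genes, 4 fell in NC cells and 3 in PTPN21 cells, and none rose. PTPN18, a phosphatase of blood cells among others, was 54.2 ± 26.3 in NC+DMSO, 14.4 ± 3.88 in NC+VCR, 41.1 ± 6.58 in PTPN21+DMSO and 16.6 ± 1.83 in PTPN21+VCR (-1.73 ± 0.33 and -1.25 ± 0.33, adjusted p = 0.00186 and 0.0133, limma). PTPN6 (SHP1, a brake on blood cell receptors) differed by -1.04 ± 0.24 in NC and -1.04 ± 0.24 in PTPN21 cells (adjusted p = 0.00602 and 0.00705, limma). Both held in both constructs under every alternative. With median ratio scaling, 3 of the 9 rose and 3 fell in PTPN21 cells, and 1 rose and 3 fell in NC cells. Under that scaling 3033 of all 11591 genes were called in PTPN21 cells and 3078 in NC cells.

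Of the 22 other FERM-domain genes, 1 rose and 2 fell with VCR in NC cells (36.2% of all genes called, 28.3% lower) and 4 rose and 4 fell in PTPN21 cells (28.5% called, 19.3% lower). JAK1, a kinase of cytokine receptors, was 3.86 ± 1.36 in NC+DMSO and 7.72 ± 0.246 in NC+VCR (0.88 ± 0.24, adjusted p = 0.0155, limma), and 2.64 ± 0.903 and 6.55 ± 0.735 in the PTPN21 cells (1.08 ± 0.24, adjusted p = 0.00639, limma). The NC value lost its call without NC+DMSO replicate 2 (0.70, adjusted p = 0.0558, limma). In NC cells PTK2B, a focal adhesion kinase, differed by -0.93 ± 0.30 and TYK2, a JAK family kinase, by -0.66 ± 0.22 (adjusted p = 0.0311 and 0.0361, limma). Neither held with median ratio scaling, under which 5 of the 22 rose and none fell (3078 of all 11591 genes called, 55.8% of them higher). PTK2B also lost its call without NC+DMSO replicate 1 or 3 or NC+VCR replicate 1 or 2 (highest adjusted p 0.112, limma), and TYK2 without NC+DMSO replicate 2 or 3 or NC+VCR replicate 1 or 3 (highest adjusted p 0.120, limma). In PTPN21 cells FERMT2 was 3.58 ± 0.991 with DMSO and 9.35 ± 1.47 with VCR (1.19 ± 0.25, adjusted p = 0.00382, limma). SNX17, an endosomal sorting protein, and NF2 (merlin), which also belongs to the Hippo pathway, differed by -1.05 ± 0.18 and -1.15 ± 0.28 (adjusted p = 0.00129 and 0.00950, limma). With median ratio scaling 8 rose and 2 fell in PTPN21 cells (3033 of all 11591 genes called, 52.2% of them higher).

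Of the 15 Hippo pathway genes, 3 fell with VCR in NC cells, and 1 rose and 2 fell in PTPN21 cells, shares of the list no higher than the 36.2% and 28.5% of all genes called. AMOTL1, an angiomotin family scaffold that binds YAP1, was 11.5 ± 5.06 in NC+DMSO and 3.62 ± 0.794 in NC+VCR (-1.37 ± 0.28, adjusted p = 0.00320, limma), and the kinase LATS1 was 4.22 ± 1.33 and 1.67 ± 0.917 (adjusted p = 0.0166, limma). LATS1 lost its call with median ratio scaling and without NC+DMSO replicate 1 or NC+VCR replicate 1 (highest adjusted p 0.0675, limma). In PTPN21 cells the kinase STK3 rose by 0.73 ± 0.17 (adjusted p = 0.00691, limma) and the scaffold SAV1 differed by -0.75 ± 0.20 (adjusted p = 0.0166, limma), the latter not without replicate 2 of either PTPN21 group (highest adjusted p 0.0562). Of the 7 tested partners of PTPN21, 3 fell with VCR in NC cells and 2 in PTPN21 cells, and none rose (all genes: 36.2% and 28.5% called, 28.3% and 19.3% lower). AKAP1, which anchors protein kinase A at mitochondria, fell in both constructs (-1.47 ± 0.34 in NC and -1.75 ± 0.34 in PTPN21 cells, adjusted p = 0.00644 and 0.00286, limma). ACTN1 fell in NC cells (-0.76 ± 0.17, adjusted p = 0.00581, limma) but not with median ratio scaling, and KIF1C in PTPN21 cells (-0.68 ± 0.20, adjusted p = 0.0252, limma), where it lost its call without any 1 of 5 of the 6 libraries compared (highest adjusted p 0.0893), the exception being PTPN21+VCR replicate 3.

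The partners of PTPN3, PTPN4 and PTPN13 are named last. Of 6 tested PTPN3 and PTPN4 partners, 2 fell with VCR in NC cells, and 1 rose and 1 fell in PTPN21 cells. Of 5 tested PTPN13 partners, 0 passed in NC cells and 2 fell in PTPN21 cells. Over all genes, 36.2% were called in NC cells and 28.5% in PTPN21 cells. MAPK12, the p38 kinase that binds PTPN3, was 9.33 ± 2.44 in NC+DMSO, 2.70 ± 0.384 in NC+VCR, 9.72 ± 1.15 in PTPN21+DMSO and 2.76 ± 0.873 in PTPN21+VCR (-1.46 ± 0.23 and -1.54 ± 0.23, adjusted p = 0.000652 and 0.000547, limma), and held under every alternative. EPS15 fell with VCR in NC cells (-0.93 ± 0.21, adjusted p = 0.00609, limma) and ADAM17 rose in PTPN21 cells (1.00 ± 0.20, adjusted p = 0.00288, limma). Of the PTPN13 partners, TRIP6, a LIM domain adaptor, and NFKBIA, the inhibitor of NF-kappaB, fell in PTPN21 cells (-1.23 ± 0.32 and -0.78 ± 0.27, adjusted p = 0.0124 and 0.0464, limma), and TRIP6 did not pass without PTPN21+VCR replicate 2 (-0.98, adjusted p = 0.0567, limma). NFKBIA did not pass without any 1 of the 6 libraries compared, nor without replicate 1 of NC+DMSO or of NC+VCR (highest adjusted p 0.152, limma). No gene of these lists passed in the interaction by limma, with 1 to 3 genes of each list at an unadjusted p under 0.05. The share of all genes at that cut was not computed. In the interaction test 15 of all 11591 genes passed after adjustment (0.0259% higher and 0.104% lower). A difference between the constructs in the response to VCR was not shown for any of them.

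**Figure D5:**
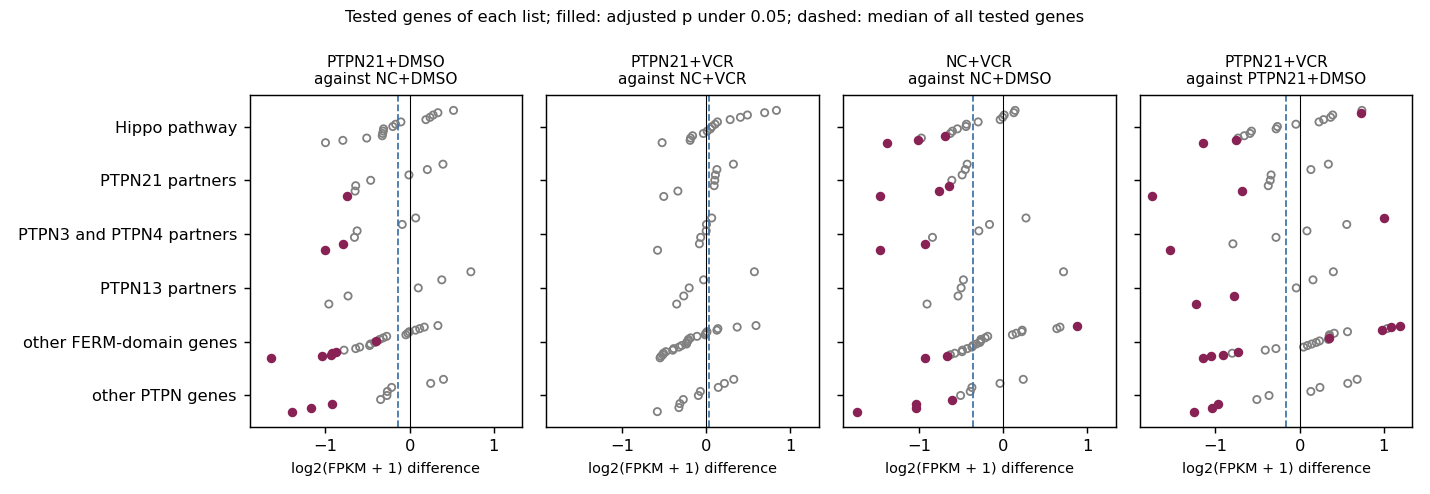
Difference on the log2(FPKM + 1) scale (x axis) of every tested gene of the 6 lists (rows) in 4 comparisons (panels), filled where the adjusted p of limma was under 0.05, with a dashed line at the median of all tested genes. Calls between the constructs appear with DMSO (12 genes, all lower) and not with VCR. Calls with VCR against DMSO lie on both sides of 0 in both constructs, with JAK1 the only rise in the NC cells.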

How the data were processed

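The 12 libraries (4 groups of 3) were grouped by their labels. The authors deposited FPKM for 60671 genes, made by an external company. The submitters' processing notes name fastp, Bowtie2 and the mouse build mm10, while the gene identifiers are human, so the build and annotation behind the values are unsettled and positions here are from GENCODE 29 (GRCh38), which holds 96.3% of the identifiers. Each column of values carried the name of 1 sample.

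The 11591 genes whose FPKM averaged 1 or more over the 12 libraries, PTPN4 and PTPN21 among them (PTPN21 only through the groups with the construct), were tested on log2(FPKM + 1) in limma 3.58.1 (R 4.3.3), with an intensity trend, 1 model of the 4 groups, no block and Benjamini-Hochberg adjustment, at a threshold of 0.05. Single members were also tested by exact two-sided permutation within strata. Both were tested on simulated data. Members and lists were chosen with earlier results of these data known. All members are named, with every list gene past the threshold between the constructs or in the interaction, the 2 largest rises and falls of each list with VCR, the 3 genes most like each tested member and the 2 nearest protein-coding neighbours on each side. The lists held genes of the Hippo pathway, partners of the members, other FERM-domain genes and other PTPN genes. Same-numbered libraries did not deviate together (18 correlations from -0.15 to 0.06), so numbers were not taken as pairs. Tables and plots used Python 3.11.15, pandas 2.3.3, numpy 2.4.6, scipy 1.17.1 and matplotlib 3.10.9.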

Additional observations from a re-analysis of the deposited data

Results flagged for a closer look

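The VCR and DMSO values of PTPN21 differed in opposite directions in the 2 constructs: every NC+VCR library lay above every NC+DMSO library (the groups of 44.1% of all genes did not overlap), and every PTPN21+VCR library lay below every PTPN21+DMSO library (50.4%). The test of that difference, the interaction of construct and VCR, was -0.90 on the log2(FPKM + 1) scale (adjusted p = 0.240, limma) and did not pass the threshold. It was -2.06 with a pseudocount of 0.1 (adjusted p = 0.198, limma). PTPN21 passed the filter on low values only through the groups with the construct, and its NC values lie below that filter, so the test says little about the NC cells. The values of the PTPN21 cells include RNA of the construct.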

How the results depend on the processing

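Leaving out 1 library gave PTPN21 against NC differences of PTPN21 from 3.08 to 3.26 with DMSO and from 2.18 to 2.45 with VCR, with limma adjusted p up to 0.000704 and 0.00542, and 2.69 to 2.83 over both treatments. Its VCR against DMSO differences ran from 0.25 to 0.46 in NC cells and from -0.64 to -0.39 in PTPN21 cells, and the interaction from -1.02 to -0.74. PTPN4 ran from -0.62 to -0.32 and 0.20 to 0.75 between the constructs, from -0.64 to -0.41 and 0.10 to 0.65 with VCR, and from 0.64 to 1.18 in the interaction. Over both strata, differences near 0 changed sign and the cause was not tested: PTPN4 with VCR was 0.13 under median ratio scaling and -0.22 to 0.0561 with 1 library left out, PTPN4 between constructs was -0.0472 under TPM scaling and -0.12 to 0.16, and PTPN21 with VCR was 0.41 with a pseudocount of 0.1, 0.00695 under median ratio scaling and -0.15 to -0.02. PTPN14 gave exact permutation p from 0.02 to 0.1 between the constructs and 0.02 to 0.23 with VCR. The lowest of these came with 1 library left out, where PTPN14 passed the threshold in both tests on values of a few fragments. The threshold was also passed for PTPN21 in NC cells with VCR at a pseudocount of 0.1 (1.44), where both groups lie below the filter, and in PTPN21 cells without the trend (-0.55, limma adjusted p = 0.0462).

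With the replicate block no member's call changed (PTPN21 between the constructs 3.20 and 2.29, limma adjusted p = 0.000707 and 0.00430), and the counts over all genes were 242, 74, 3796, 2956 and 8. The correlations of same-numbered libraries, none above 0.1, gave no pairing. Counts between the constructs with DMSO were 146 with no filter, 400 with a filter of 0.1, 321 without the trend and 40 with only the groups compared, and with VCR 84, 131, 72 and 117. VCR against DMSO gave 2674 in NC cells with only the groups compared and 2064 in PTPN21 cells with no filter. The interaction gave 28 under TPM scaling and 9 without the trend. With 1 library left out the 5 counts ran from 67 to 1345, 43 to 354, 3224 to 4024, 2353 to 3619 and 7 to 30. Of 46 calls of list genes, 0 of 12 between the constructs with DMSO, 6 of 15 with VCR in NC cells and 10 of 19 in PTPN21 cells held under every alternative, and none changed direction. The omission of single libraries for the permutation tests was added after the data were seen. Depth is known only roughly, which limits PTPN14 and the NC values of PTPN21.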
